A study of Homo sapiens with 25 samples.

Results

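In HEC-1A endometrial adenocarcinoma cells, 1396 regions carried the histone mark H3K4me3 in every library and lay under no ATAC-seq peak. They were chosen by merging the peaks of the 6 deposited H3K4me3 peak lists on chromosomes 1 to 22 and X into 47473 regions. A region was kept if it had a peak in all 6 lists (22662 regions), spanned under 5000 bp (19702 of those), and overlapped no peak of the 9 deposited ATAC-seq lists. The other 18306 narrow regions served for comparison: 7108 of them overlapped an ATAC peak in 1 to 8 lists and 11198 did so in all 9. Because the H3K4me3 and ATAC peak calls chose the regions, the width, enrichment and ATAC values below are descriptions without a test.

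HEC-1A is a human endometrial adenocarcinoma line, labelled wild type in all 25 samples of the series. RNA-seq and ATAC-seq were each run on 3 untreated samples, 3 samples given 20 µM THC for 24 h and 3 given it for 72 h. H3K4me3 was mapped by CUT&RUN in 3 untreated samples and in 3 samples given 20 µM THC for a time that the labels do not state. The labels give no culture time for untreated cells, and the IgG sample was not analysed here.

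H3K4me3, trimethylated lysine 4 of histone H3, is deposited by the SET1 and MLL methyltransferases and typically marks the first nucleosomes downstream of active gene starts, above all at CpG islands, where CXXC proteins that bind unmethylated CpG help recruit the enzymes. ATAC-seq measures where the Tn5 transposase can cut DNA, so that its peaks fall on the nucleosome-depleted stretch at promoters and enhancers. At an active CpG island promoter the ATAC peak and the flanking H3K4me3 are usually seen together.

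A small number of the regions held a gene start, and most of those starts were poor in CpG. The RefSeq table of starts (GRCh38.p14; the files' build is GRCh38) placed 45 starts of 41 genes inside them. The stretches below, the 250 bases before a start, show CpG-poor and CpG-rich examples among genes whose outermost start lay in such a region and which had no start at a region with ATAC: ITGB6, CASP4 and GBP1 with almost no CpG, and NOTCH3 with many. They were chosen after the CpG counts were seen, and capitals mark each CpG.
ITGB6 (chr2:160200273-160200522, minus strand, 0 CpG): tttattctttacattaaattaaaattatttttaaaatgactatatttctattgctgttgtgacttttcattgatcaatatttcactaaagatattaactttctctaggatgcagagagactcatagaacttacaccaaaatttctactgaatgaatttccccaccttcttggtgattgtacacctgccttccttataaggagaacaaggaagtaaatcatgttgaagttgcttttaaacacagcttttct
CASP4 (chr11:104968575-104968824, minus strand, 2 CpG): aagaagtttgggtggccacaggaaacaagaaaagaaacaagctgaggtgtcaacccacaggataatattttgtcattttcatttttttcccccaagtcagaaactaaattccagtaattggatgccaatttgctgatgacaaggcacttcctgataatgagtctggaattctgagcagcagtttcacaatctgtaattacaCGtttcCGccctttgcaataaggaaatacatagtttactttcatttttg
GBP1 (chr1:89065209-89065458, minus strand, 2 CpG): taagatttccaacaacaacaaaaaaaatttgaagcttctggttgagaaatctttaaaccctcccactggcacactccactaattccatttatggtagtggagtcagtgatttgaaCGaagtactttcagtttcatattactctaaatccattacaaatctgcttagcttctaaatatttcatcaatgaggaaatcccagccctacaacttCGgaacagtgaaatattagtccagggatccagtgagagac
NOTCH3 (chr19:15200996-15201245, minus strand, 28 CpG): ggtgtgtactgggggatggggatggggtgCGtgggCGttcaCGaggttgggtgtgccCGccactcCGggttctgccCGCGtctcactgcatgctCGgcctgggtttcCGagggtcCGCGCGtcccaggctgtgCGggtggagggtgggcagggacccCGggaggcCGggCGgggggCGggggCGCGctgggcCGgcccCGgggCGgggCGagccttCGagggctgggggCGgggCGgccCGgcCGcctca

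The H3K4me3 regions without any ATAC peak lay away from annotated gene starts in most cases. Only 135 of 1396 held a start or lay within 1000 bp of one, which is 9.67% (Wilson 95% interval 8.23% to 11.3%, counting error only), against 51.3% of the other regions. A start lay inside 58 regions (4.15%), against 47.3% of the others. Starts came from a table that lacks 10956 of 38151 coding and lncRNA genes, and for those genes both ends of the annotated span were counted because the strand was not given. With starts of known strand only, the share was 6.66%. A further 992 regions (71.1%) overlapped a coding or lncRNA gene away from any start, and 269 (19.3%) lay between genes. Overlap with genes as such was much the same in both sets: 79.4% of these regions and 82.0% of the others overlapped a coding or lncRNA gene, and 17.1% of the others lay between genes.

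**Figure D1:**
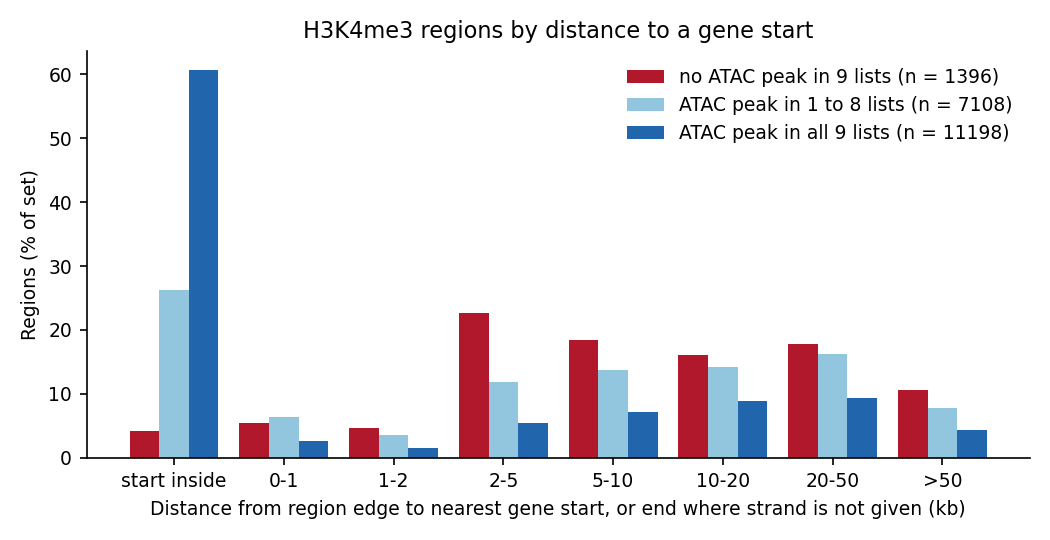
Share of regions (y axis, percent of each set) by distance in kb from the region's edge to the nearest gene start, or to either gene end where the strand was not given, for regions with no ATAC peak (red), with one in 1 to 8 lists (light blue) and in all 9 lists (dark blue). A start lay inside 4.15% of the red set and 60.6% of the dark blue set, while 22.6% of the red set and 5.49% of the dark blue set lay 2 to 5 kb away.

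Another H3K4me3 region lay close to many of these regions, and a marked start with ATAC lay close to fewer. The median gap to the nearest start was 8231 bp, with 25% of the regions within 3439 bp and 25% beyond 23094 bp. Another H3K4me3 region lay within 2000 bp of 731 of them (52.4%), against 34.4% of the other regions. A region that sat at a gene start and did overlap an ATAC peak lay within 2000 bp of 380 (27.2%), against 12.3% of the regions with ATAC in 1 to 8 lists and 5.14% of those with ATAC in all 9. The median distance to such a start region was 8927 bp, against 27545 bp for the other regions. A region never counted as its own neighbour, and 51.3% of the other regions lay at a start themselves. For those, the distance ran to a different start region. The sets were therefore unlike in this measure and in the shares within 2000 bp, which were not split by place. Of the regions away from starts whose nearest start had a known strand, 652 of 968 (67.4%) lay downstream of it, in the direction of transcription, against 57.9% of the other regions. Regions farther than 50 kb from any start made up 10.7%, against 5.66% of the other regions. Counted only among regions away from starts, they were 149 of 1261 here and 1037 of 8909 among the others, which are similar shares. Regions are not replicates of a condition, so no test was run on these shares.

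For 825 regions away from starts, a host gene had an annotated upstream start of known strand, and the median distance from it was 13148 bp. The distance was at most 5000 bp for 196 of them, at most 10 kb for 350 (42.4%) and at most 20 kb for 507.

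The mark was narrow and weakly enriched at these regions. Their median width was 1487 bp (range 394 to 4511 bp), against 2335 bp for the other regions. Away from starts the medians were 1487 and 1623 bp, and at starts they were 1508 and 3215 bp. The authors' fold enrichment, taken as the median over the 6 lists, had a median of 5.63 over these regions and 12.7 over the others. As a percentile of all peaks in the same list, fold enrichment had a median of 38.5 for these regions and 63.3 for the others. Away from starts these medians were 37.9 and 48.6, and at starts they were 48.7 and 78.6. Per library, the median fold at these regions ran from 5.13 to 6.06. The nearest ATAC peak was a median of 2461 bp away, with 149 regions within 500 bp of one and 361 more than 5000 bp from any.

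**Figure D2:**
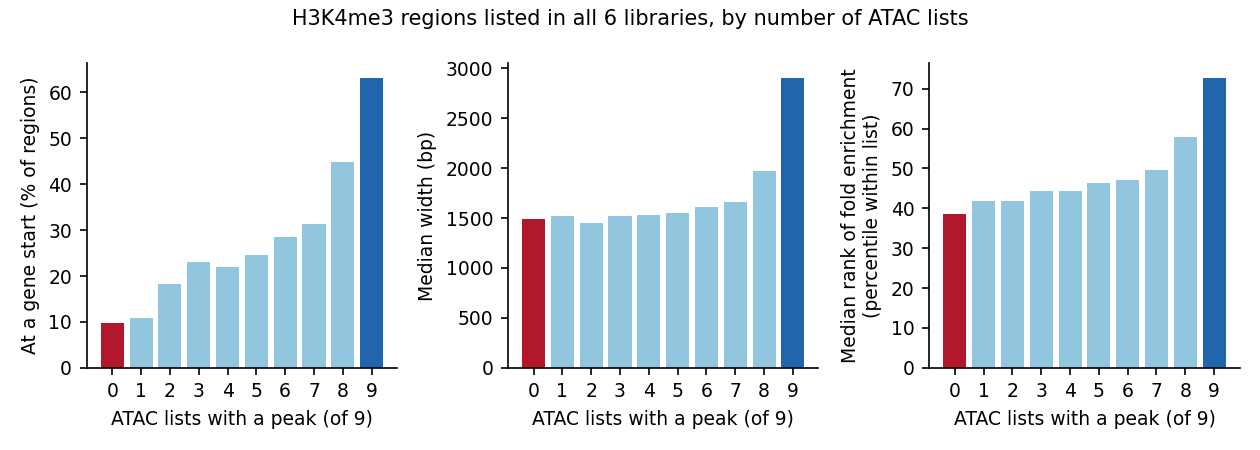
The 19702 H3K4me3 regions under 5000 bp and listed in all 6 libraries, by the number of ATAC lists with an overlapping peak (x axis, 0 to 9): share at a gene start (left, percent), median width (middle, bp) and median percentile rank of fold enrichment (right). From 0 to 9 lists the share at a start went from 9.67% to 63.2%, the median width from 1487 to 2907 bp and the rank from 38.5 to 72.8.

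Regions seen open in only 1 ATAC list resembled those open in none. Among 546 such regions, 10.8% lay at a start, the median width was 1520 bp and the median rank was 41.8. The ATAC lists differed in length, from 38495 to 150884 peaks, and untreated replicate 1, the longest list, was the sole list with a peak at 137 of these 546 regions (25.1%). Without that list the set without any ATAC peak grew from 1396 to 1533 regions.

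A few strongly marked regions lay right beside an ATAC peak. Only 3 regions had a median rank above 90, near MPRIP, SET and USP42. The region with the highest rank, chr17:17042805-17046550, began 348 bp downstream of a start of MPRIP, which encodes a partner of myosin phosphatase. Its fold enrichment was 51.3, 59.8 and 61.7 in the untreated libraries and 61.8, 52.5 and 59.6 in the THC libraries, and the nearest ATAC peak was 77 bp away. The region at SET, a histone chaperone and phosphatase inhibitor, chr9:128690145-128693180, lay 171 bp downstream of a start and 135 bp from an ATAC peak. The region in USP42, a ubiquitin protease gene, lay 35 bp from an ATAC peak. The next 5 by rank lay in TET3, in CHD3 and NAA38, in HDAC4, at MSH3 and at MIER2, between 103 and 694 bp from an ATAC peak. Over all 303 regions with a median rank above 50, 18.5% lay within 500 bp of an ATAC peak, against 8.51% of the 1093 regions at or below 50. Their median distances to an ATAC peak were close, 2405 and 2493 bp, while 22.1% and 6.22% lay at a start.

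Members lay right up to the ATAC limit of the rule, and less close to its width limit. The nearest regions inside the ATAC limit were 1 bp from a peak at an end of UBE2H, 6 bp in SMURF2 and 8 bp in ZNF638, while a region at HERC2 with an overlap of 2 bp fell just outside. The widest member, 4511 bp at C11orf54, stood inside the width limit, and regions of 5043 bp at SMC4 and 5120 bp in MON2 stood outside. In all, 8 regions of 5000 bp or more had no ATAC peak.

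Most gene starts inside the regions had few CpG, like those of ITGB6, CASP4 and GBP1 printed above. In the 300-base window from 250 bases before to 50 after the start, the 45 starts had a median of 4 CpG, against 26 for the 10755 starts inside the other regions and 14 for all 34961 starts in the table. At most 5 CpG were present at 29 of the 45 (64.4%), against 6.22% of the starts inside the other regions and 33.6% of all starts. Median GC content was 44%, against 65.7% and 58.7%. ITGB6 had 0 CpG in the window, IFIT3 and the TPM3 start inside a region had 1, RPL6 had 2, and CASP4 and GBP1 had 3. Only 6 of the 45 had 20 or more, among them MSH3 and NOTCH3 with 37 each and TLE2 with 40. The 29 starts with at most 5 CpG lay in regions a median of 2127 bp from an ATAC peak, and the other 16 lay in regions a median of 432 bp from one.

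Some of these genes had other starts inside regions with ATAC. Of the 45 starts, 24 were inner starts, downstream of another annotated start of the same gene, with a median of 3 CpG, and 21 were the outermost start, with a median of 5. For 15 of the 41 genes, 28 other starts lay inside regions that did overlap an ATAC peak, and these had a median of 13.5 CpG. TPM3, a tropomyosin, RPL6, a ribosomal protein of the large subunit, and IFIT3, an interferon-induced RNA-response protein, had a start at a region with ATAC. CpG was not compared between the starts of single genes.

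**Figure D3:**
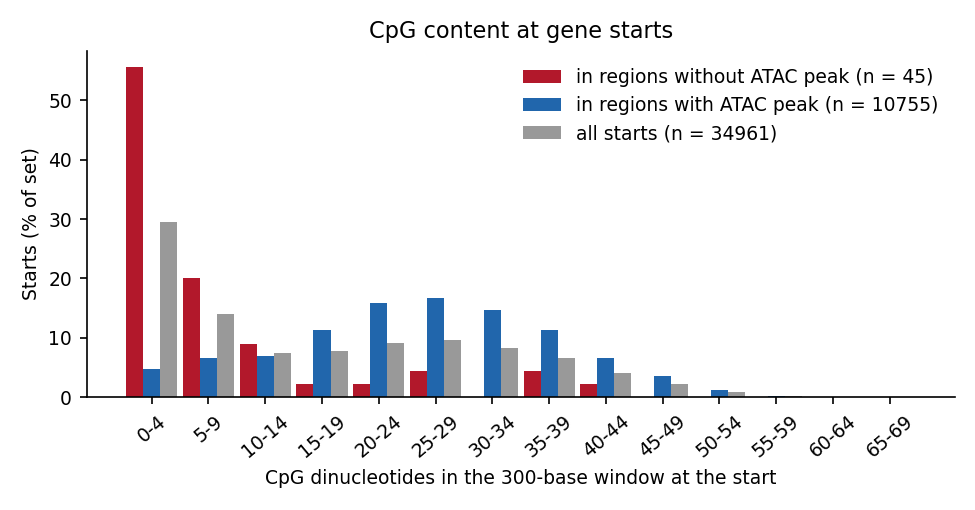
Share of gene starts (y axis, percent of each set) by the number of CpG dinucleotides in the 300-base window (x axis, bins of 5), for the 45 starts inside regions without an ATAC peak (red), 10755 inside other regions (blue) and all 34961 (grey). The red set is highest in the lowest bin, whereas the blue set has its median at 26.

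Short motifs were searched by their letters in the same windows. GGGCGG, the core of the GC box, was present on either strand in 24.4% of the 45 windows, 69.7% of windows in the other regions and 45.0% of all windows. CCGGAAG, an ETS-type match, was present in 2.22%, 19.3% and 10.3%. CCAAT was present in 42.2%, 34.5% and 34.6%, and TATAAA in 11.1%, 4.52% and 11.5%. With 45 windows, 1 match is 2.22%.

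The region over the start of MSH3, a mismatch recognition protein, combined a CpG-rich start with strong enrichment. Its fold enrichment was 32.3, 39.2 and 35.9 in the untreated H3K4me3 libraries and 26.7, 27.9 and 28.1 in the THC libraries. None of the 9 ATAC lists had a peak within 694 bp. MSH3 was at 8.39, 9.72 and 9.18 TPM (transcript share of a library, corrected for length) in the untreated RNA libraries, 9.03, 9.19 and 9.51 at 24 h and 9.05, 9.32 and 8.30 at 72 h, and these ranges overlapped. Its changes on the log2(TPM + 1) scale were 0.02 and -0.03 (SE 0.070; limma adjusted p = 0.784 and 0.719).

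The regions at a start or gene end were linked to 148 genes, 99 coding and 49 lncRNA. For 56 the outermost start was at the region, for 41 an inner start was, and for 51 the strand was not given. Of the 148, 95 had a start at an H3K4me3 region that did overlap an ATAC peak, and 53 did not. That start could be the same one, since a start counted for every region within 1000 bp. An RNA row was found for 113 genes, and 83 passed the filter of a mean of at least 1 TPM over the 9 libraries.

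Levels of linked genes depended on which genes were counted. Over all 113 linked genes with an RNA row, the median was 7.43 ± 0.783 TPM in untreated cells (SD over n = 3 libraries), 7.03 ± 0.475 at 24 h and 8.05 ± 0.335 at 72 h, and it was 14.1 ± 0.417 TPM in untreated cells for genes linked to the other regions. Over the 83 linked genes that passed the filter, the median was 19.6 ± 0.510 TPM untreated, 13.96 ± 0.519 at 24 h and 21.1 ± 0.829 at 72 h. Genes linked to the other regions that passed it were at 20.2 ± 0.493 TPM untreated, close to the linked genes, and at 17.5 ± 0.0139 at 24 h. All genes that passed it were at 18.4 ± 0.527, 15.7 ± 0.0744 and 19.6 ± 0.120 TPM. The linked genes with a start inside the region had a median of 5.35 ± 0.210 TPM untreated, 8.12 ± 0.204 at 24 h and 5.61 ± 0.280 at 72 h, but 20.7 ± 0.926, 14.1 ± 1.17 and 22.3 ± 0.513 among those that passed the filter, the opposite direction at 24 h. The 53 genes with no start at any region with ATAC had a median of 1.70 ± 0.187 TPM untreated, and 20 of them passed the filter, with a median of 8.10 ± 0.0486. The 955 genes that hosted a region away from any start had a median of 23.9 ± 1.17 TPM in untreated cells, against 11.9 ± 0.457 for genes hosting the other regions, and 29.4 ± 0.781 against 22.3 ± 0.669 among those that passed the filter. Hosts had a median span of 82425 bp, against 59151 bp, and 862 of the 955 had a start at an H3K4me3 region with ATAC. The host set was formed after the data had been seen.

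The most abundant linked genes were RPL6, SET, TPM3, MPRIP and PLS3, and all 5 also had a start at a region with ATAC. RPL6 was at 1326, 1306 and 1288 TPM untreated, 1062, 1156 and 1147 at 24 h, and 1589, 1548 and 1445 at 72 h. SET was at 927, 874 and 857 TPM untreated, 771, 825 and 854 at 24 h, and 698, 695 and 631 at 72 h. RPL6 libraries were lowest at 24 h and highest at 72 h without overlap, and its 24 h change was -0.0034 and not called with libraries centred on their medians, whereas SET libraries were lowest at 72 h. MPRIP, beside the most strongly marked region, was at 251, 286 and 257 TPM untreated, 342, 318 and 325 at 24 h, and 138, 123 and 144 at 72 h. Its groups did not overlap: it was higher at 24 h by 0.31 (SE 0.067, limma adjusted p = 1.63e-03) and fell by 0.96 at 72 h (adjusted p = 5.05e-07). PLS3, the actin bundler plastin 3, fell by 0.95 and by 1.47.

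After 24 h of THC, 22 of the 83 linked genes that passed the filter were higher and 48 lower by limma at an adjusted p of at most 0.05, against backgrounds of 25% higher and 51.7% lower among all 13753 genes. After 72 h, 34 were higher and 29 lower, against 40.1% and 33%. Between 24 and 72 h, 44 were higher and 15 lower at 72 h, against 54.9% and 17.8%. Median changes of the linked genes were -0.37, 0.11 and 0.22 in the 3 comparisons, and those of all genes -0.23, 0.06 and 0.26. The shares of linked genes thus lay near the background in each comparison. Both comparisons with untreated cells share the same 3 untreated libraries. With each library centred on its median, the linked splits were 28 higher and 34 lower at 24 h, 30 and 32 at 72 h, and 29 and 33 between the times. Centring moved the higher share among all called genes from 32.6% to 49.1% at 24 h and from 75.5% to 44.5% between the times.

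Several of the linked genes with the largest changes had no start at any region with ATAC. Among them were CASP4, CRYAB, ITGB6 and B3GALT5, and also GBP2 and SLC17A3 below. CASP4, an inflammatory caspase that senses cytosolic lipopolysaccharide, was at 3.02, 2.91 and 2.91 TPM untreated, 12.6, 15.6 and 14.1 at 24 h and 16.7, 16.7 and 16.9 at 72 h. Every THC library lay above every untreated one, and the gene rose by 1.93 and 2.17 (SE 0.074; limma adjusted p = 7.51e-09 and 3.47e-09). Its start, with 3 CpG, lay in a region 31206 bp from the nearest ATAC peak. CRYAB, the small heat shock protein alpha B-crystallin, rose from 1.88, 1.51 and 1.71 TPM to 12.8, 11.01 and 11.5 at 24 h, and was at 7.30, 8.21 and 7.82 at 72 h. Its 3 groups did not overlap (changes of 2.24 and 1.70, SE 0.083; limma adjusted p = 6.16e-09 and 4.02e-08), and an end of CRYAB lay in the region.

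ITGB6, the beta 6 subunit of an epithelial integrin that activates TGF-beta, was at 27.1, 28.9 and 28.8 TPM untreated, 9.42, 9.69 and 10.9 at 24 h and 6.16, 6.37 and 5.83 at 72 h. The groups did not overlap, and the level was lower at each later time. It fell by 1.41 and 2.04 (SE 0.066; limma adjusted p = 2.89e-08 and 2.62e-09). Its start, with 0 CpG, lay in a region 4701 bp from the nearest ATAC peak. B3GALT5, a glycosyltransferase, was at 7.47, 8.35 and 7.61 TPM untreated, 0.881, 0.989 and 1.17 at 24 h and 2.10, 1.67 and 1.74 at 72 h. No libraries of different groups overlapped, and B3GALT5 fell by 2.13 and 1.64 (limma adjusted p = 1.94e-08 and 1.31e-07). NOTCH3, a Notch receptor with a CpG-rich start, was at 20.8, 18.7 and 11.8 TPM untreated, 13.4, 12.4 and 11.9 at 24 h and 11.1, 9.75 and 10.0 at 72 h. Its untreated and 24 h libraries overlapped; it passed the test only at 72 h, with a change of -0.64 (SE 0.16, limma adjusted p = 5.00e-03).

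IFIT3, an interferon-induced protein, had an inner start inside a region that lay 63 bp from the nearest ATAC peak. It was at 38.8, 39.3 and 38.2 TPM untreated, 102, 107 and 102 at 24 h and 43.7, 45.2 and 42.3 at 72 h. It was highest at 24 h, and rose by 1.40 and 0.17 (SE 0.043; limma adjusted p = 1.93e-09 and 4.64e-03); with libraries centred on their medians the 72 h change was 0.083 and not called (adjusted p = 0.0838). GBP1, a guanylate-binding protein, was at 11.7, 10.8 and 10.2 TPM untreated, 9.82, 11.8 and 10.1 at 24 h and 5.06, 5.42 and 4.84 at 72 h. It overlapped between untreated and 24 h (change -0.04, adjusted p = 0.679 by limma) and fell by 0.96 at 72 h (SE 0.083, adjusted p = 2.62e-06). Its neighbour GBP2 was at 6.09, 3.62 and 6.05 TPM untreated, 10.1, 9.33 and 11.3 at 24 h and 25.4, 27.5 and 21.7 at 72 h. Its groups rose without overlap, by 0.87 and 2.07 (SE 0.16; limma adjusted p = 5.62e-04 and 1.08e-06).

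**Figure D4:**
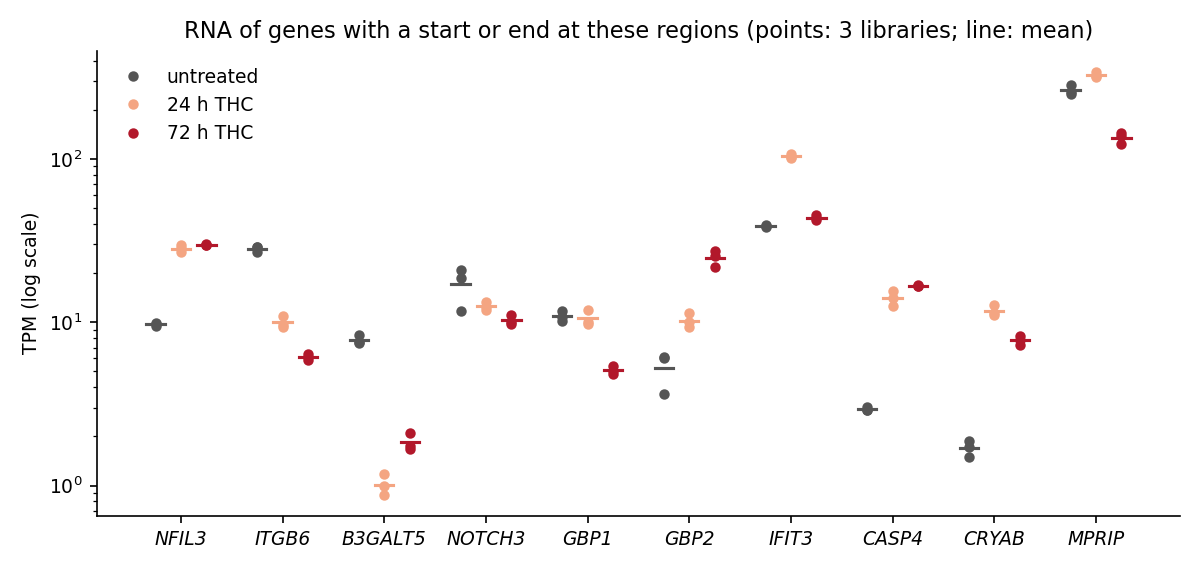
RNA levels in TPM (y axis, log scale) of 10 genes with a start or end at H3K4me3 regions without an ATAC peak, in 3 untreated (grey), 3 24 h THC (orange) and 3 72 h THC (red) libraries; short lines are means. CASP4, CRYAB and NFIL3 lie higher and ITGB6 and B3GALT5 lower in every THC library than in any untreated one, while GBP1 and GBP2 part at 72 h.

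Further linked genes called with groups that did not overlap were, at 24 h, ZBTB20, NFIL3, LINC01881, TRPM8 and UBE2H among those higher, with changes of 1.10 to 1.65, and SDC3, SLC17A3, SNN, CIC and HMGB3 among those lower, with changes of -1.74 to -1.22. NFIL3, a leucine zipper repressor, went from 9.77, 9.96 and 9.46 TPM to 26.9, 29.5 and 28.5 at 24 h and 29.6, 30.1 and 29.7 at 72 h. TRPM8, a cation channel, was at 8.59, 8.52 and 6.53 TPM untreated and 22.8, 18.7 and 20.5 at 24 h. SLC17A3, an anion transporter, was at 3.61, 3.57 and 3.57 TPM untreated and was listed at 0 in 2 of the 3 libraries at 72 h. EML1, TPRN and LRFN4 were higher at 72 h, by 1.12 to 1.16. TPRN was at 8.53, 7.29 and 7.48 TPM untreated and 19.1, 15.9 and 20.4 at 72 h, without overlap.

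Fixed gene classes were counted among the linked genes, without the size of each class among all genes. Linked were 3 zinc finger (ZNF) genes, 7 solute carriers, 17 genes with lncRNA-type names, 1 cytosolic ribosomal protein gene (RPL6) and 2 developmental transcription factor genes (FOXP1 and HOXC10). No histone, olfactory receptor, protocadherin or mitochondrial ribosomal or respiratory gene was linked. tRNA genes could not be linked, because only coding and lncRNA genes were considered. FOXP1 was at 4.19 ± 0.364 TPM untreated and 8.48 ± 0.760 at 72 h (SD, n = 3), a rise of 0.87 (limma adjusted p = 1.84e-05). The ZNF genes that passed the filter, ZNF512B and ZNF200, fell at 24 h by 0.83 and 0.64 (limma adjusted p = 4.49e-06 and 2.78e-05). None of the 22 genes of the H3K4me3 writers, erasers and readers considered was linked, and KDM2A, a CXXC demethylase, hosted a region; all 22 passed the filter, with 5 higher and 13 lower at 24 h, and 10 higher and 6 lower at 72 h, against 25% and 51.7%, and 40.1% and 33%, of all genes.

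Host genes, whose bodies held regions away from starts, included strongly changed genes, named after their values had been seen. Of 774 hosts that passed the filter, 205 were higher and 420 lower at 24 h by limma (26.5% and 54.3%, against 25% and 51.7% of all genes). At 72 h, 235 were higher and 332 lower (30.4% and 42.9%, against 40.1% and 33%). Between the times, 342 were higher and 213 lower at 72 h (44.2% and 27.5%, against 54.9% and 17.8%). The hosts' median change at 72 h was -0.08, against 0.06 over all genes, and the same for hosts of the other regions was -0.02. Hosts of the other regions also differed from all genes in this direction. Of these, 35.7% were higher and 39.2% lower at 72 h, and 48.7% and 24.3% between the times. With centring, 194 hosts were higher and 390 lower at 72 h, and 155 and 413 between the times. The higher share among called hosts was then 33.2% and 27.3%, against 47.3% and 44.5% among all called genes. NIBAN1, a stress-induced gene, was at 5.54, 5.56 and 4.67 TPM untreated, 30.1, 32.6 and 31.0 at 24 h and 57.5, 54.5 and 55.6 at 72 h. BICC1, an RNA-binding protein, was at 68.0, 76.9 and 72.5 TPM untreated, 8.45, 8.93 and 9.70 at 24 h and 8.09, 8.97 and 9.54 at 72 h. Neither gene's THC libraries overlapped its untreated ones; changes were 2.37 and 3.19 for NIBAN1 and -2.87 and -2.90 for BICC1.

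Of the hosts, 95 held 2 or more regions and 9 held 3 or more. SHROOM3, an actin regulator of epithelial cell shape, held 4, and was at 24.5, 26.4 and 23.6 TPM untreated, 10.4, 10.5 and 9.42 at 24 h and 12.8, 12.9 and 12.8 at 72 h. It was lower in every THC library (changes of -1.22 and -0.90, SE 0.062; limma adjusted p = 5.13e-08 and 5.02e-07). MEGF9, with 3 regions, fell by 2.17 and 1.75. NEDD4L, a ubiquitin ligase with 3 regions, was at 87.9 ± 5.96 TPM untreated and 62.0 ± 2.30 at 72 h (SD, n = 3; change -0.49, limma adjusted p = 1.35e-05). STAG1, a cohesin subunit, and ARID1B, a SWI/SNF subunit, held 3 each, and fell at 24 h by 0.98 and 0.38.

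Markers of an epithelial line were present: 9 of 9 epithelial markers passed the filter, with a summed level of 3201 to 3315 TPM untreated, 5329 to 5607 at 24 h and 3916 to 4161 at 72 h. Of 8 stromal markers 1 passed the filter (sums of 3.82 to 4.95, 0.596 to 1.39 and 0.993 to 1.37 TPM), with LUM at 0 throughout, and none of 5 endothelial markers passed. Of 8 immune markers only CD68 passed, and the summed level was 0.311 to 0.547 TPM untreated, 128 to 137 at 24 h and 29.5 to 39.8 at 72 h. MS4A1 was at 0 in all libraries and PTPRC at or near 0. The part of these markers in the changes above was not tested. In bulk samples, fewer cells of a type and less RNA per cell cannot be told apart. The labels name biological replicates without saying whether each was its own culture. A p-value here sets a difference between group means only against the spread among these samples.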

How the data were processed

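Peaks were used as deposited by the authors, 1 list per library: 6 H3K4me3 lists of 30098 to 35879 peaks and 9 ATAC lists of 38495 to 150884. Per the submitters' processing notes, Bowtie2, Picard, SAMtools, MACS2 2.2.7.1, MACS3 and Salmon were used on GRCh38; which caller made which list is not stated there. In the deposited lists the fold enrichment is a ratio over the caller's background, the significance is −log10 p and −log10 q, and the score is 10 times −log10 q. RNA levels are the authors' deposited TPM for 60179 gene rows; these hold no counts, so the depth is unknown and no interval on depth is given.

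Peaks were merged where they overlapped or adjoined (Python 3.11.15, pandas 2.3.3). Gene starts came from RefSeq (GRCh38.p14) and genes were matched by symbol; a region at or within 1000 bp of a start links to the gene. The RNA tests used limma 3.58.1 (R 4.3.3; moderated, with an intensity trend) on log2(TPM + 1), over 13753 genes with a mean of at least 1 TPM in all 9 libraries, with Benjamini-Hochberg adjustment at 0.05. A change is on that log2 scale, which understates changes of low genes. Merging and fits were tested on simulated data.

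The named genes are linked genes: the 10 highest, up to 8 called each way per comparison with groups that do not overlap and the largest change, and up to 4 per gene class; regions were named by rank, width and ATAC distance. Members and lists were chosen with earlier results of these data known. Some items that this rule names are not reported here. Hosts and printed sequences were chosen after their values were seen. Same-numbered RNA libraries did not deviate together in every pair (correlations -0.199 to 0.252 against -0.235 to 0.219 for unlike numbers), so no pairing was assumed.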

Additional observations from a re-analysis of the deposited data

Results flagged for a closer look

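Of the named linked genes, 7 were called in opposite directions at 24 h and 72 h of THC against the same untreated libraries, and for each the difference between the times passed the limma test. MPRIP was higher by 0.31 at 24 h and fell by 0.96 at 72 h, a difference of -1.28 (adjusted p = 1.68e-07). The other 6 were lower at 24 h and higher at 72 h. TPRN changed by -0.25 and 1.15, a difference of 1.40. HOXC10 changed by -0.78 and 0.52, a difference of 1.30, at levels of 0.511 to 2.73 TPM (group means). CYB5D1 changed by -0.65 and 0.52, a difference of 1.17. C11orf54, at the widest region, changed by -0.68 and 0.33, a difference of 1.01. SLC35E2B changed by -0.64 and 0.36, a difference of 1.00. RPL6 changed by -0.22 and 0.22, a difference of 0.45. With libraries centred on their medians, 3 of the 7 no longer had opposite calls: RPL6 (24 h change -0.0034) and TPRN (24 h change -0.036) lost the 24 h call and C11orf54 (72 h change 0.25) the 72 h call. TPRN's 24 h call was also lost with genes filtered only on a mean TPM above 0 and without 24 h replicate 2 or 3 or untreated replicate 1 or 3 (changes -0.28 to -0.19). C11orf54's 72 h call was also lost with that filter and without 72 h replicate 2 or untreated replicate 2 or 3 (changes 0.25 to 0.33). Over all genes the median difference between the times was 0.26.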

How the results depend on the processing

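The set held 1403 to 1720 regions with any 1 H3K4me3 or ATAC list left out, and 9.39% to 10.5% of them lay at a start. With H3K4me3 peaks of −log10 q of at least 5 it held 891 regions, 12.01% at a start; with no ATAC peak within 500 bp, 7.22% lay at a start. Counting only starts inside a region gave 4.15%, counting those within 5000 bp gave 37.0%, and starts of known strand, an alternative chosen after seeing the data, gave 6.66%. With starts inside a region, 35 linked genes passed the filter. Of these, 12 were called higher and 18 lower at 24 h, 17 and 13 at 72 h, and 15 and 9 between the times. The higher shares were 34.3%, 48.6% and 42.9%, against 25%, 40.1% and 54.9% of all genes. The lower shares were 51.4%, 37.1% and 25.7%, against 51.7%, 33% and 17.8%. With starts within 5000 bp, 511 linked genes passed the filter, and 140 and 272, 190 and 185, and 262 and 111 were called. Median untreated levels under these links were 5.35 and 21.1 TPM. Centring gave 29 and 33 between the times. Leaving out 1 RNA library in turn gave 18 to 21 and 46 to 49 at 24 h, 31 to 36 and 28 to 30 at 72 h, 41 to 46 and 14 to 16 between the times; leaving out 1 untreated library, chosen after seeing the data, gave median levels of 7.20 to 7.88 TPM. With the replicate number as a block, 20 and 48, 34 and 29, and 43 and 15 were called. Of 1283 values of named genes under alternatives, 1249 kept direction and call, 22 lost a call, 3 gained one and 9 changed sign, none of these called under the alternative and only TPM3 at 24 h (-0.13) called as reported. With centring, SET, TPM3 and GBP1 at 24 h became 0.10, 0.084 and 0.18 and RNF208 at 72 h became -0.078; RPL6 and TPRN lost the 24 h call, and C11orf54 and IFIT3 the 72 h call. Leaving out 1 library in turn, GBP1 at 24 h ranged from -0.12 to 0.0083 and RNF208 at 72 h from -0.081 to 0.13. LRFN4's 24 h call was lost in 9 alternatives. ATAC and H3K4me3 lists hold no reads, so a missing peak can reflect depth, which was not tested.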

Other observations

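The share of narrow H3K4me3 regions without any ATAC peak differed by chromosome. It was highest on chromosome 4, at 9.43% (70 of 742), and chromosome 6, at 8.96% (97 of 1083), and lowest on chromosome 22, at 3.93% (21 of 535), chromosome 19, at 4.60% (58 of 1262), and chromosome X, at 4.81% (26 of 540).

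Peak summits of the 6 H3K4me3 lists lay within 200 bp of each other in 12.9% of the regions without an ATAC peak, against 26.7% of the regions with ATAC in 1 to 8 lists and 36.6% of those with ATAC in all 9. A single peak in every list made up 85.7% of the regions without ATAC, 85.9% and 87.1% of the others in the same order.

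The 2 narrowest regions linked to the same gene, at an end of CCZ1 on chromosome 7, were 529 and 697 bp wide, with ATAC peaks 384 and 12 bp away. CCZ1 has a near-identical copy, so its reads and its level of 38.6 ± 0.361 TPM untreated (SD, n = 3) may be shared between copies.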
